A study of Mus musculus with 12 samples.

Results

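The deposited samples were gastrocnemius muscles of 11-week-old female C57BL/6J mice, each read as 1 3' mRNA tag library. The results here concern the 6 libraries of contracted right legs, divided by how many reads of Myc each library held. A library with 10 or more Myc reads was placed in the high class and a library with 2 or fewer in the low class, which gave 3 libraries in each class out of 12 libraries in the series. The members of each class were thus chosen by measured Myc reads, the readout itself, and not by the labels. The labels name 3 control mice and 3 mice with c-myc over-expression. 4 of the 6 contracted libraries went against the label: those labelled contracted control 2 and 3 were in the high class, and those labelled contracted Myc 2 and 3 were in the low class. The libraries labelled contracted Myc 1 (high) and contracted control 1 (low) matched theirs. The left legs of the same 6 animals, as the titles pair them, were not contracted and gave 3 libraries labelled Myc and 3 labelled control, which the rule did not use.

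In all animals the contracted leg was the right and the uncontracted leg the left, so the effects of side and of contraction cannot be told apart. The means of Myc over-expression, the cells that carried it and the interval between contraction and sampling are not given in the sources used here. A library made from mRNA 3' ends reads a transgene only if its transcript carries the annotated 3' end of Myc.

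Myc encodes a transcription factor that binds DNA as a dimer with Max, and its preferred site is the E-box CACGTG. The best described Myc-dependent programme is ribosome biogenesis: ribosomal proteins, nucleolar assembly factors, nucleotide synthesis and the factors of translation, together with mitochondrial import. In skeletal muscle Myc transcript is scarce at rest and is known to be induced by loading and contraction.

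4 promoters are shown here because their genes carry the results below: Nme1 and Timm10, the 2 genes that passed the test in the uncontracted legs, Eef2, the translocation factor of the elongating ribosome, and Rpl36a, a protein of the large ribosomal subunit. Each is the 250 bases 5' of a RefSeq transcript start on the gene's own strand (GRCm38.p6), written 5' to 3', with the E-box CACGTG in capitals where it occurs. CACGTG is its own reverse complement, so 1 search covers both strands.
Nme1, chr11:93968273-93968522, minus strand: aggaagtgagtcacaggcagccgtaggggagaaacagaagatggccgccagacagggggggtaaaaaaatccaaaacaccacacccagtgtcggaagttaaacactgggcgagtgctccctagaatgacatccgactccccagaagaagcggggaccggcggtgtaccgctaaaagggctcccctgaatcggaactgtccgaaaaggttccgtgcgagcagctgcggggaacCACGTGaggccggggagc
Eef2, chr10:81176381-81176630, plus strand: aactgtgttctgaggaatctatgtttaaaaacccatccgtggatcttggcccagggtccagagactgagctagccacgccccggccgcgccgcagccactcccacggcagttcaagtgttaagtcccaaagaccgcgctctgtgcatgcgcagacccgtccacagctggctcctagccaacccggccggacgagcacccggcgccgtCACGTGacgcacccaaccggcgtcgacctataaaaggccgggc
Timm10, chr2:84826771-84827020, plus strand: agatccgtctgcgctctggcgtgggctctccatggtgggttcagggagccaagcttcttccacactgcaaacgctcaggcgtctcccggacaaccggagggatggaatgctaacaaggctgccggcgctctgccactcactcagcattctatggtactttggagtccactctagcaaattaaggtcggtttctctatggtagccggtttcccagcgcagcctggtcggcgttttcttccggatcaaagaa
Rpl36a, chrX:134585404-134585653, plus strand: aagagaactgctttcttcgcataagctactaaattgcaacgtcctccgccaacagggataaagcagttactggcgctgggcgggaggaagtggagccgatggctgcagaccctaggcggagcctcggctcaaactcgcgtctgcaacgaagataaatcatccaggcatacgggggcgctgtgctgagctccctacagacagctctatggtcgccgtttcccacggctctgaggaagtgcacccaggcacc

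The Nme1 window held the motif 18 bases before the start, and the Eef2 window held it 43 bases before the start. The windows of Timm10 and Rpl36a did not hold these letters. In the 27025 genes of the promoter table the motif occurred in 6.05%, and in the 5285 tested genes with a window it occurred in 9.48%. Cytosolic ribosomal protein genes held it in 7.02%, rRNA processing and nucleolar genes in 9.23%, and mitochondrial ribosome and import genes in 13.5%. A match of letters is a description of the sequence only.

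Myc itself chose the classes, so its values are a description. The high class held 10 reads in contracted control 2, 59 in contracted control 3 and 32 in contracted Myc 1. The low class held 1 read in contracted control 1, 0 in contracted Myc 2 and 2 in contracted Myc 3. The threshold therefore fell between 10 reads, the library just inside the high class, and 2 reads, the library just outside it.

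As counts per 1e+06 counted reads (CPM), the high libraries stood at 6.59 (95% exact Poisson interval 3.16 to 12.1) in contracted control 2, 39.9 in contracted control 3 and 22.3 (15.3 to 31.6) in contracted Myc 1. Contracted control 1 stood at 0.673 CPM and contracted Myc 3 at 1.26 CPM. The 0 reads of contracted Myc 2 allowed up to 2.24 CPM. These intervals cover counting error only, and not variation between animals. The reads carry no molecular identifiers in the sources used here, so duplicate reads could make the intervals too narrow.

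Within the animals as titled, Myc reads in the left and right leg were 0 and 1 in control 1, 1 and 10 in control 2, and 0 and 59 in control 3. They were 11 and 32 in Myc 1, 9 and 0 in Myc 2, and 9 and 2 in Myc 3. The uncontracted legs thus followed the label in all 6 libraries, and the contracted legs in 2 of 6. The log2 difference of Myc between the labels in those legs was 4.48 ± 0.84 (SE, n = 3 and 3), with an adjusted p of 0.0525 by edgeR's quasi-likelihood test.

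**Figure D1:**
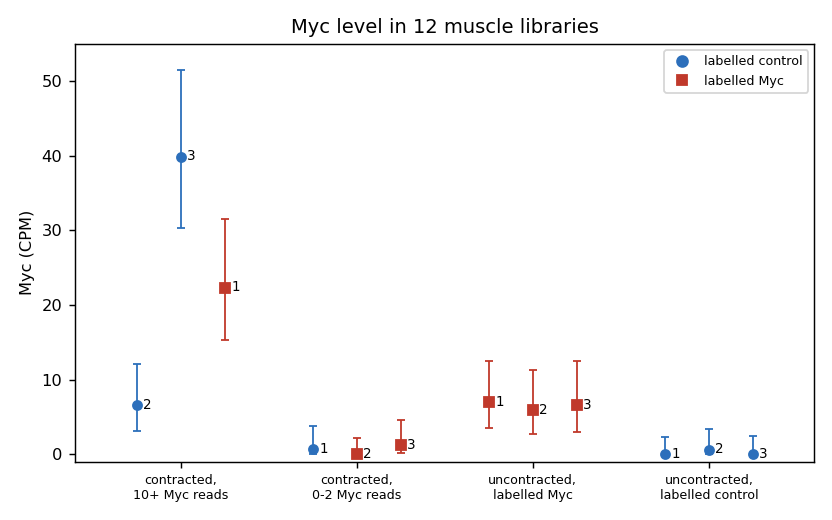
Myc level (CPM, vertical axis) in the 12 libraries, with 95% exact Poisson intervals as bars. Circles are libraries labelled control and squares libraries labelled Myc, and the digit beside each point is the animal number. Both classes of contracted legs mix circles and squares, while the uncontracted groups do not, and contracted control 2, at 6.59 CPM, lies near the uncontracted libraries labelled Myc.

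The contraction label, in contrast, was matched by all 12 libraries. Egr1, an immediate early transcription factor that contraction is known to induce, ranged from 41.2 to 156 CPM in the 6 contracted libraries and from 1.98 to 8.65 CPM in the 6 uncontracted libraries. Fibre transcripts were abundant throughout, and the tissue label names muscle: the 14 skeletal muscle fibre markers summed to between 178738 and 223214 CPM. Library totals ran from 1371732 to 1643216 counted reads over the series, from 1431829 to 1516651 in the high class and from 1486624 to 1643216 in the low class. Mitochondrially encoded genes took 30.5% to 34.1% of reads in the high class and 27.5% to 30.9% in the low class, and the part of that difference in the results below was not tested.

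Across genes, 6675 were tested once Myc was left out, and the split was fitted with edgeR's quasi-likelihood test. No gene passed an adjusted p of 0.05 (0 of 6675, 0%), and the smallest adjusted p was 0.315. At an unadjusted p under 0.05 there were 420 genes (6.29%), of which 225 were higher and 195 lower in the high class. DESeq2 also called 0. Since the classes came from reads of these same libraries, nothing is supported by these counts, and the differences below are descriptions of the 3 high and 3 low libraries.

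The uncontracted legs, compared by label, gave the test that is independent of the rule. There 2 of 6676 genes (0.03%) passed by edgeR's quasi-likelihood test, and both rose: Timm10, a small chaperone of mitochondrial protein import, and Nme1, a nucleoside diphosphate kinase that supplies nucleoside triphosphates. An unadjusted p under 0.05 was reached by 498 genes (7.46%). The contracted legs compared as labelled gave 0 passing genes (0%), with a smallest adjusted p of 0.999 by edgeR's quasi-likelihood test and 179 genes (2.68%) at an unadjusted p under 0.05. DESeq2 called 18 genes in the uncontracted comparison.

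Timm10 stood at 48.3, 54.8 and 40.1 CPM in uncontracted Myc 1 to 3 and at 17.7, 19.8 and 19.5 CPM in uncontracted control 1 to 3. It rose by 1.29 ± 0.19 (log2, SE, n = 3 and 3; adjusted p = 0.011, edgeR). In the contracted legs it stood at 43.5, 46 and 39.1 CPM in the high libraries and at 24.2, 23.1 and 25.8 CPM in the low libraries, here and below in the order contracted control 2, control 3 and Myc 1 for the high class and control 1, Myc 2 and Myc 3 for the low class. The classes did not overlap, and the difference was 0.80 ± 0.18.

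Nme1 stood at 53.3, 56.8 and 50.3 CPM in the uncontracted libraries labelled Myc and at 22.6, 21.6 and 28.6 CPM in those labelled control. It rose by 1.11 ± 0.17 (adjusted p = 0.0127, edgeR). The contracted values were 50.1, 39.2 and 53.8 CPM in the high class and 29.6, 30.4 and 42.1 CPM in the low class, a difference of 0.48 ± 0.20 with contracted Myc 3 of the low class above contracted control 3 of the high class. Both uncontracted calls were lost when single libraries were left out: by edgeR's quasi-likelihood test the adjusted p of each was 0.141 without uncontracted Myc 2, 0.0532 without uncontracted control 1 and 0.063 without uncontracted control 3. The call of Nme1 alone was also lost without uncontracted control 2 (adjusted p = 0.0978, edgeR) and without uncontracted Myc 3 (adjusted p = 0.0700, edgeR).

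The split and the uncontracted comparison share no library, although their legs come from the same animals by title. Of the 420 genes at an unadjusted p under 0.05 in the split and the 497 in the uncontracted legs without Myc, 106 were shared in the same direction, 75 of them higher and 31 lower, which is 25.2% of the first list and 21.3% of the second. The contracted legs as labelled shared 5 genes in the same direction with the uncontracted legs, 2.79% and 1.01% of the lists. For scale, an unadjusted p under 0.05 in either direction was reached by 6.29% of all genes in the split. The shares were 7.46% in the uncontracted legs, with Myc included, and 2.68% in the contracted legs as labelled. Pearson's r of the log2 differences across all 6675 genes was 0.21 (Spearman's rho 0.20) for the split against the uncontracted comparison, and -0.04 for the contracted legs as labelled.

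Among the 717 genes with a mean of at least 100 CPM, a limit chosen after the values were seen, r was 0.66 (rho 0.61) for the split and -0.07 for the contracted legs as labelled. These are correlations across genes, which are not independent replicates. Single libraries moved the value: r was 0.426 without contracted Myc 1, 0.462 without contracted Myc 2 and 0.744 without contracted control 3. With the genotype label as a covariate in the split it was 0.68.

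**Figure D2:**
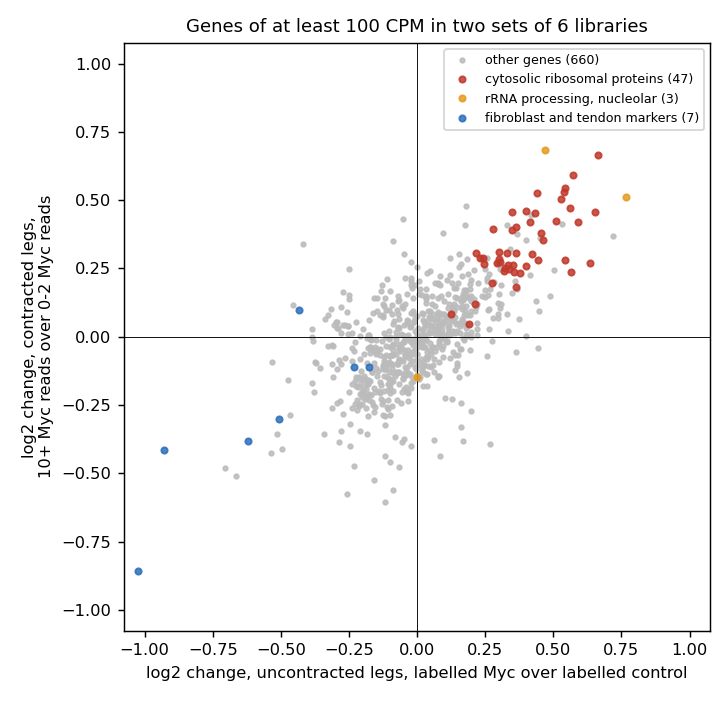
Log2 difference of each gene of at least 100 CPM in the contracted legs split by Myc reads (vertical axis) against the uncontracted legs compared by label (horizontal axis). Each point is 1 of 717 genes, with cytosolic ribosomal proteins, nucleolar genes and fibroblast or tendon markers coloured. The coloured ribosomal protein points lie in the upper right, the lowest point on the left is Col1a1 (-0.86 and -1.03), and r over all points was 0.66.

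Cytosolic ribosomal protein genes gave the largest count in the split of the 36 gene lists described. Of 81 listed genes 78 were measured, and 45 of them (57.7%) stood higher in all 3 high libraries than in any low library, against 6.31% of all genes tested; 1 stood lower, against 4.76%. 74 of the 78 differences were positive and their median was 0.31 (log2), where the median of all genes was -0.003. None passed the test in either comparison. By label in the uncontracted legs, 45 of the 78 also stood higher without overlap, against 7.79% of all genes, 0 stood lower, against 4.33%, and the median was 0.38. 33 of the 78 (42.3%) were higher without overlap in both comparisons, against 1.72% of all genes.

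Summed over the list, ribosomal protein transcripts took 18851 to 22572 CPM in the high class and 15930 to 17242 CPM in the low class. The uncontracted libraries labelled Myc held 19996 to 22264 CPM and those labelled control 14844 to 17356 CPM. Within the label the split was alike: the list's mean log2 level was 0.38 higher in contracted control 2 and 3 than in contracted control 1, and 0.38 higher in contracted Myc 1 than in contracted Myc 2 and 3. Compared by label, the contracted legs had a list median of -0.01.

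Rpl36a, of the large subunit, stood at 228, 250.2 and 276 CPM in the high libraries and at 150.0, 144 and 177 CPM in the low libraries. All 3 high libraries lay above all 3 low ones, by 0.67 ± 0.13. The uncontracted libraries labelled Myc held 282, 259.6 and 250 CPM and the controls 145, 154 and 192 CPM, a difference of 0.66 ± 0.12 (adjusted p = 0.0525, edgeR), again without overlap. The 2 differences were thus of like size.

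Rpl32, also of the large subunit, ran at 292, 319 and 339 CPM in the high class against 203, 205 and 238 CPM in the low class, which is 0.54 ± 0.12. Rpl38 ran at 172, 199 and 217 CPM against 129, 118 and 139.6 CPM, which is 0.59 ± 0.14. Rpl37 ran at 546, 644 and 636 CPM against 416, 413 and 444 CPM, which is 0.50 ± 0.12. For each of these 3 genes the classes were separate, and the uncontracted difference was 0.54 ± 0.12 for Rpl32, 0.57 ± 0.13 for Rpl38 and 0.53 ± 0.11 for Rpl37. Contracted Myc 1 or contracted control 3 was the highest contracted library for each. Ribosomal protein genes have many processed pseudogenes, so how reads were assigned between copies adds uncertainty to single genes.

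**Figure D3:**
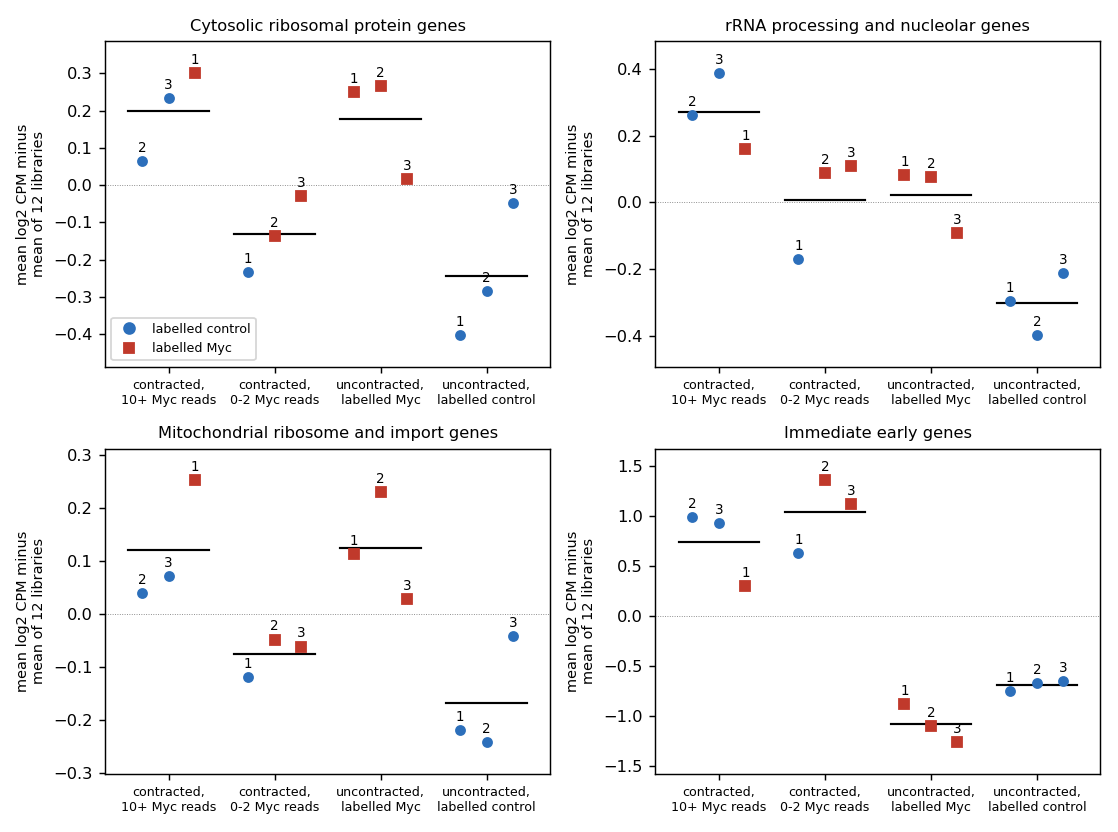
Mean log2 CPM of 4 gene lists in each library, relative to the mean of the 12 libraries (vertical axis), with points as circles for the control label and squares for the Myc label, digits for the animal number, and lines at group means. For cytosolic ribosomal proteins every high contracted library lies above every low one, and the list stood 0.38 higher within each label; immediate early genes set contracted from uncontracted legs apart and the classes overlap.

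Genes of rRNA processing and nucleolar assembly came next in the number of separate genes. Of 97 listed, 77 were measured, and 24 (31.2%) were higher without overlap in the high class while 0 were lower, against 6.31% and 4.76% of all genes tested. The median was 0.28 in the split and 0.28 in the uncontracted legs, where 21 genes (27.3%) were higher and 2 (2.6%) lower without overlap, against 7.79% and 4.33% of all genes. 11 of the 77 (14.3%) were higher without overlap in both, against 1.72% of all genes. None passed the test. The separation was uneven between the labels: the list's mean was 0.50 higher in contracted control 2 and 3 than in contracted control 1, but 0.06 higher in contracted Myc 1 than in contracted Myc 2 and 3.

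Npm1, nucleophosmin, a granular component of the nucleolus that chaperones ribosome assembly, stood at 46.2, 56.8 and 53.8 CPM in the high libraries and at 26.9, 25.6 and 29.6 CPM in the low libraries. The classes were well apart, by 0.92 ± 0.18, with a difference of 0.81 within the control label and 0.97 within the Myc label. In the uncontracted legs it was 42.6, 32.4 and 33.5 CPM under the Myc label and 19, 24.7 and 24.1 CPM under the control label, which is 0.65 ± 0.20 (adjusted p = 0.373, edgeR).

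Ncl, nucleolin, which acts in rRNA transcription and pre-rRNA processing, stood at 135, 147 and 135 CPM in the high class and at 86.8, 102 and 101 CPM in the low class. That is 0.51 ± 0.13 without overlap. The uncontracted values were 129.6, 142 and 108 CPM against 61.1, 75.4 and 82 CPM, or 0.77 ± 0.14 (adjusted p = 0.0525, edgeR). The low contracted libraries lay above the uncontracted controls for this gene.

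Nhp2 and Dkc1 encode partners in the box H/ACA particles that guide pseudouridylation. Nhp2 stood at 51.4, 66.9 and 76.1 CPM in the high class and 40.4, 37.1 and 45.9 CPM in the low class, 0.64 ± 0.18 apart. Dkc1 stood at 119, 172 and 137 CPM in the high class and 56.5, 109 and 98.7 CPM in the low class, 0.68 ± 0.19 apart. Neither overlapped between the classes, and contracted control 1 held the lowest Dkc1 value. The uncontracted difference was 0.69 ± 0.18 for Nhp2 and 0.47 ± 0.18 for Dkc1.

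Genes of the mitochondrial ribosome and of protein import were measured in 43 of 48 cases, and 14 (32.6%) were higher and 1 (2.33%) lower without overlap in the high class, against 6.31% and 4.76% of all genes. The median was 0.18, and 0.07 without contracted Myc 1. The uncontracted legs had 15 higher (34.9%, against 7.79% of all genes), 1 lower (2.33%, against 4.33%) and a median of 0.22. Without overlap in both, 8 genes (18.6%, against 1.72%) were higher. Timm10, described above, was the only member that passed in the uncontracted legs. C1qbp, a matrix protein tied to mitochondrial translation, stood at 61.3, 53.4 and 65.7 CPM in the high libraries and at 29.6, 45 and 44.6 CPM in the low libraries. The difference was 0.58 ± 0.19 there and 0.74 ± 0.19 in the uncontracted legs, without overlap in either. Hspe1, the co-chaperonin of the matrix, stood at 58.7, 75.1 and 82.4 CPM against 42.4, 53.6 and 52.8 CPM, a difference of 0.52 ± 0.17.

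Translation factors and aminoacyl-tRNA synthetases were measured in 54 of 55 cases. 7 (13%) were higher and 0 lower without overlap, against 6.31% and 4.76% of all genes, with a median of 0.13. The uncontracted legs gave 8 higher (14.8%, against 7.79%), 0 lower and a median of 0.14. Eef2 stood at 1122, 1209.8 and 1259 CPM in the high class and at 871, 788 and 948 CPM in the low class, 0.45 ± 0.12 apart. The uncontracted values were 1254, 1199 and 1094 CPM against 909, 756 and 938 CPM, 0.42 ± 0.11 apart. The groups did not overlap in either pair of legs. Eef1b2, a nucleotide exchange factor for eEF1A, stood at 189, 179.9 and 186 CPM against 126, 152 and 134 CPM, a difference of 0.41 ± 0.13, and differed by 0.53 ± 0.13 in the uncontracted legs. The glycyl-tRNA synthetase gene Gars was higher in the high class by 0.35 ± 0.16, but its uncontracted difference was -0.09 ± 0.17.

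Nucleotide, one-carbon and polyamine genes had members separate in both directions. Of 27 measured among 41 listed, 5 (18.5%) were higher and 4 (14.8%) lower without overlap, against 6.31% and 4.76% of all genes. The median was 0.14, and 0.06 without contracted control 3. The uncontracted legs had 6 higher (22.2%, against 7.79% of all genes), 1 lower (3.7%, against 4.33%) and a median of 0.24. Nme1 was the 1 member that passed there. Cad, the enzyme that opens pyrimidine synthesis and a classical Myc target, stood at 5.93, 10.8 and 11.9 CPM in the high class and 4.71, 4.87 and 4.4 CPM in the low class, 1.0 ± 0.38 apart on few reads. The 4 lower members, Oat, Azin1, Smox and the spermine synthase gene Sms (a difference of -0.11), act in ornithine or polyamine metabolism. Oat, ornithine aminotransferase, stood at 27.7, 28.4 and 31.4 CPM in the high class against 45.7, 41.4 and 39.6 CPM in the low class, a difference of -0.55 ± 0.19. Azin1, the antizyme inhibitor, differed by -0.52 ± 0.18 and Smox, spermine oxidase, by -0.49 ± 0.18, both without overlap. In the uncontracted legs the differences were 0.05 ± 0.17 for Oat, -0.39 ± 0.29 for Azin1 and -0.20 ± 0.17 for Smox.

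The highest differences in the split among named genes of at least 5 CPM with separate classes, none of which passed, were those of Pycr1, Cyp26b1, Dph5, Comtd1 and Reep6. Pycr1, which makes proline in mitochondria, stood at 10.5, 23.7 and 23 CPM in the high class and at 6.73, 6.69 and 2.52 CPM in the low class, 1.81 ± 0.40 apart. Its uncontracted values were 14.6, 9.91 and 15.3 CPM under the Myc label and 4.89, 1.85 and 5.86 CPM under the control label, 1.62 ± 0.39 apart (adjusted p = 0.137, edgeR). All 6 libraries with 9 or more Myc reads were above all 6 others for Pycr1. The cut at 9 is not that of the rule, and Pycr1 was named for its separate classes. This order is therefore a description only.

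Dph5, of the diphthamide pathway that modifies eEF2, stood at 13.2, 10.1 and 11.9 CPM in the high class and 4.71, 4.26 and 3.14 CPM in the low class. That is 1.51 ± 0.36, beside 1.31 ± 0.41 in the uncontracted legs, with no overlap in either. Reep6, an endoplasmic reticulum membrane protein, stood at 13.2, 12.8 and 10.5 CPM against 2.69, 5.48 and 6.29 CPM, or 1.30 ± 0.35, beside 1.59 ± 0.43. Cyp26b1, a retinoic acid hydroxylase, rested on a single library: contracted control 2 held 82.4 CPM where the other high libraries held 22.3 and 17.5 and the low libraries 12.1, 11 and 16.3. Its difference was 1.63 ± 0.48, and 0.57 without contracted control 2. Comtd1 differed by 1.31 ± 0.36 in the split and by 0.91 ± 0.45 in the uncontracted legs, where leaving out single libraries gave 0.31 (without uncontracted Myc 1) to 1.43 (without uncontracted control 1).

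Tfrc, the transferrin receptor of iron uptake, stood at 58, 58.2 and 62.9 CPM in the high class and at 43.7, 31.6 and 36.5 CPM in the low class, a difference of 0.66 ± 0.18. The uncontracted values were 68, 62.1 and 64.9 CPM against 43.4, 31.5 and 43 CPM, a difference of 0.70 ± 0.16. Neither pair of groups overlapped. It was the 1 member of 12 measured transporter genes (8.33%, against 1.72% of all genes) that was higher without overlap in both. In the split 1 of the 12 (8.33%) was higher and 2 (16.7%) lower without overlap, against 6.31% and 4.76% of all genes. The list's split median was -0.005.

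**Figure D4:**
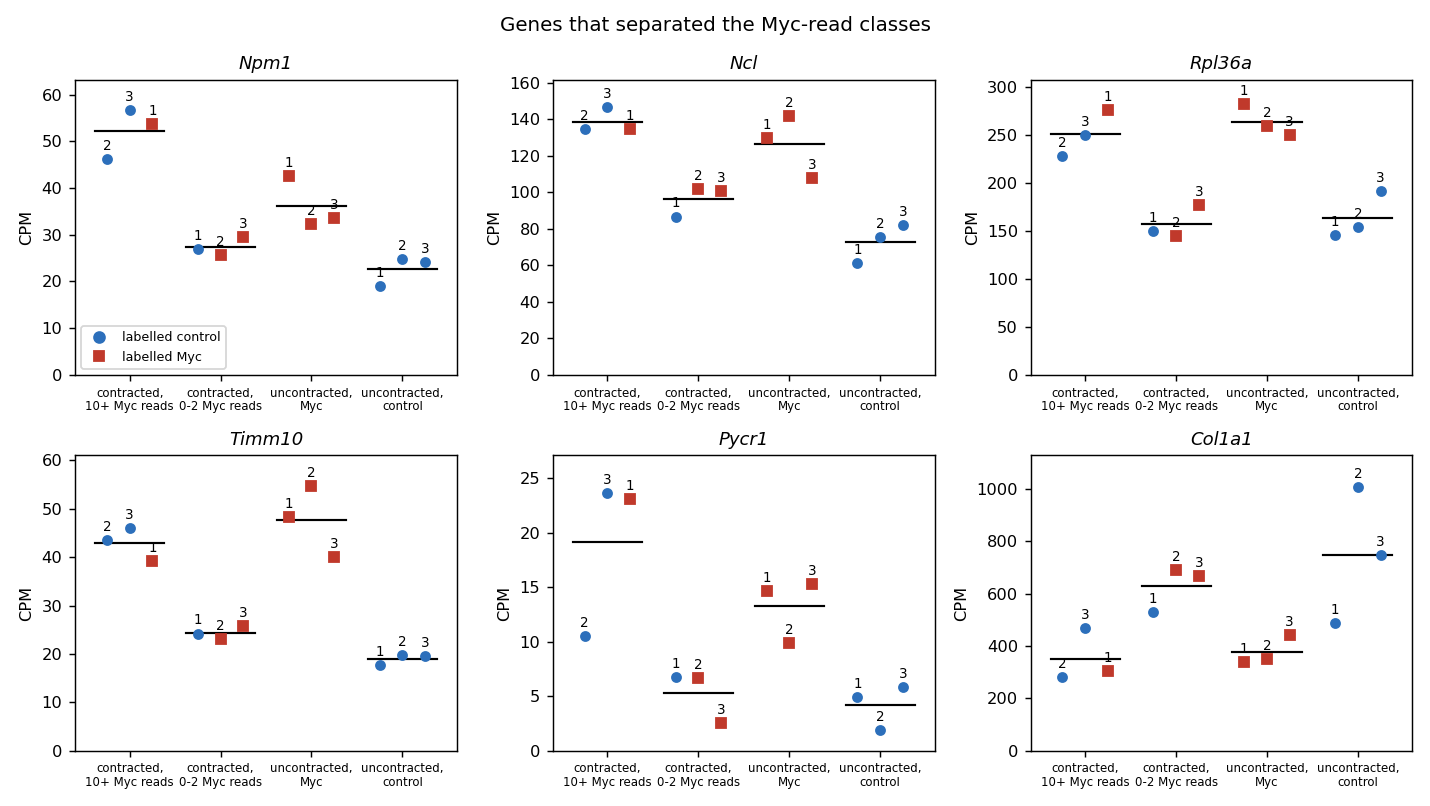
CPM of 6 genes in each library (vertical axes start at 0), in the 2 contracted classes and the 2 uncontracted labelled groups, with circles for the control label, squares for the Myc label, digits for the animal number and lines at group means. For Npm1, Ncl, Rpl36a, Timm10 and Pycr1 the high class lies above the low class and the uncontracted Myc label above the uncontracted control label, without overlap, and for Col1a1 both lie below.

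The lowest differences by the same rule were those of Vwa7, Zfp532, Serpina3c, Timp1 and Zfp219, and again none passed. Vwa7, a von Willebrand factor A domain gene, stood at 3.96, 5.41 and 6.29 CPM in the high class and 15.5, 11 and 17.6 CPM in the low class, a difference of -1.49 ± 0.34. In the uncontracted legs it stood at 5.08, 4.62 and 5.1 CPM against 20.2, 10.5 and 9.76 CPM, a difference of -1.48 ± 0.39, and neither pair overlapped. For the other 4 the split is given first and the uncontracted difference second. Zfp532, a zinc finger gene, differed by -1.41 ± 0.45 and 0.38 ± 0.43, and Serpina3c, a serine protease inhibitor, by -1.37 ± 0.44 and 0.26 ± 0.64. Timp1, an inhibitor of matrix metalloproteinases, differed by -1.21 ± 0.37 and 1.38 ± 0.98, and Zfp219 by -1.21 ± 0.42 and -0.68 ± 0.46. Only Vwa7 and Zfp219 of these 5 were lower in both.

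Collagen transcripts were lower in the high class. Col1a1, the main fibrillar collagen of connective tissue, stood at 279.6, 468 and 305 CPM in the high class and at 529, 691 and 665 CPM in the low class. Every low library exceeded every high one, and the difference was -0.86 ± 0.16, -0.64 within the control label and -1.11 within the Myc label. The uncontracted libraries labelled Myc held 337, 349 and 443 CPM and the controls 488, 1008 and 746 CPM, a difference of -1.03 ± 0.20 (adjusted p = 0.0597, edgeR). Col3a1 stood at 65.9, 78.4 and 69.8 CPM against 95.5, 92.5 and 104 CPM in the split, a difference of -0.46 ± 0.14, and differed by -0.67 ± 0.19 in the uncontracted legs.

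The fibroblast markers as a list were less uniform than these 2 collagens. 18 of 19 were measured, 2 (11.1%) were lower and 0 higher without overlap, against 4.76% and 6.31% of all genes, and the median was -0.17, or 1.541e-04 without contracted Myc 3. The sum over all 19 ran from 1989 to 3032 CPM in the high class and from 2399 to 3563 CPM in the low class. The classes thus overlapped. In the uncontracted legs 4 (22.2%, against 4.33% of all genes) were lower and 0 higher without overlap, with a median of -0.34, and 2 genes, Col1a1 and Col3a1, were lower in both, against 0.554% of all genes. Sparc, a collagen-binding matrix protein, differed by 0.30 within the control label and by -0.96 within the Myc label. In whole muscle, fewer cells of a type and less RNA per cell cannot be told apart.

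Tnmd, tenomodulin, the defining tendon marker, stood at 5.27, 7.44 and 4.89 CPM in the high class and at 8.74, 9.74 and 15.1 CPM in the low class. That is -0.94 ± 0.35, beside -0.98 ± 0.36 in the uncontracted legs. Of 8 measured tendon markers 1 (12.5%, against 4.76% of all genes) was lower and 0 higher without overlap in the split. Of their differences 5 were negative and 3 positive. The sums of the tendon list overlapped, at 322 to 450 CPM in the high class and 397 to 441 CPM in the low class. The 13 listed macrophage markers, 5 of them among the genes tested, summed to between 118 and 129 CPM in the high class. In the low class they summed to between 148 and 163 CPM. Of the 5 tested, 1 (20%) was lower and 0 higher without overlap, against 4.76% and 6.31% of all genes. Of the lymphocyte list only Ighm was measured, at 1.98, 5.41 and 4.19 CPM against 9.42, 9.13 and 7.55 CPM, and Cd3e had no read in any library. The 10 listed neutrophil markers, 2 of them among the genes tested, summed to between 7.91 and 78.4 CPM in the high class. In the low class they summed to between 6.09 and 63.2 CPM, and Cxcr2, Ly6g and Csf3r had no read. The part of these cell types in the differences above was not tested.

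Immediate early genes, which respond to contraction, were lower in the high class in their means, but the classes overlapped. Of 22 measured immediate early genes 0 were separate in either direction, against 6.31% higher and 4.76% lower of all genes. All 22 differences were negative. Their median was -0.28, ranging from -0.40 without contracted control 3 to -0.11 without contracted Myc 1. The direction differed between the labels. Within the Myc label the list's mean in contracted Myc 1 differed by -0.93 from that in contracted Myc 2 and 3, whereas within the control label it was 0.33 higher in the 2 high libraries. The list's uncontracted median was -0.53. There 3 of the 22 genes (13.6%) were lower and 0 higher without overlap, against 4.33% and 7.79% of all genes.

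Egr1 stood at 110.1, 84.5 and 41.2 CPM in the high class and at 84.1, 156 and 119 CPM in the low class. Contracted Myc 1 was the lowest and contracted Myc 2 the highest of the 6, and contracted control 1 lay among the high libraries. The difference was -0.62 ± 0.27 across the 6 libraries, 0.11 within the control label and -1.66 within the Myc label. Btg2, an antiproliferative immediate early gene, stood at 65.9, 48.7 and 33.5 CPM against 55.2, 86.4 and 78.6 CPM, with within-label differences of -0.05 and -1.23. Socs3, a feedback inhibitor of cytokine signalling, stood at 34.9, 18.3 and 10.5 CPM against 30.9, 47.5 and 35.8 CPM, with within-label differences of -0.36 and -1.82.

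Of 18 measured genes of mechanical stress and sarcomere remodelling 0 were separate in either direction, against 6.31% higher and 4.76% lower of all genes. Their median was -0.19, ranging from -0.32 without contracted control 3 to -0.10 without contracted Myc 1, with within-label list differences of 0.34 (control) and -0.68 (Myc). Xirp1, a repair protein of damaged sarcomeres, stood at 173, 255 and 139.7 CPM in the high class and at 157, 330.4 and 324 CPM in the low class. Rrad, a Ras-related GTP-binding protein, stood at 149.7, 115 and 57.3 CPM against 118, 170.4 and 191 CPM. For both genes contracted Myc 1 was the lowest library, and contracted control 1 lay within the range of the high class. The filamin gene Flnc differed by 0.18 within the control label and -1.02 within the Myc label.

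**Figure D5:**
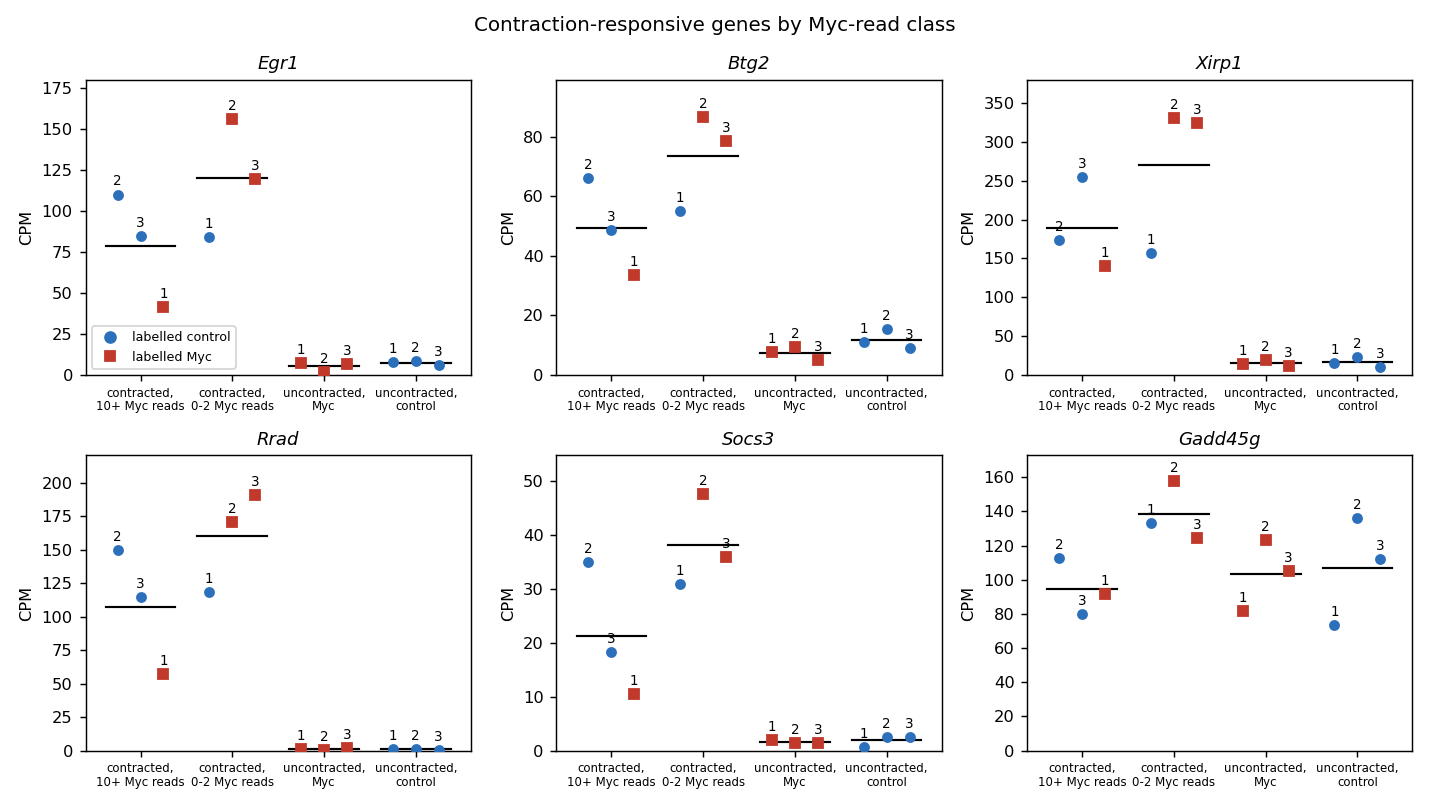
CPM of 6 contraction-responsive or stress genes in each library (vertical axes start at 0), with circles for the control label, squares for the Myc label, digits for the animal number and lines at group means. Contracted Myc 1 is the lowest contracted library for Egr1, Btg2, Xirp1, Rrad and Socs3, the classes overlap for these 5 genes, and Gadd45g is the 1 panel in which they do not.

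Stress genes of the integrated stress response were lower without overlap in 4 of 14 measured cases (28.6%) and higher in 0, against 4.76% and 6.31% of all genes. The median was -0.18, ranging from -0.32 without contracted control 1 to -0.07 without contracted Myc 3. Their within-label list differences were 0.13 (control) and -0.33 (Myc). Atf4, the transcription factor at the centre of that response, stood at 503, 533 and 427 CPM in the high class and at 535, 671 and 691 CPM in the low class, a difference of -0.39 ± 0.13. The uncontracted difference was -0.29 ± 0.12. Nupr1, a stress-induced chromatin protein, stood at 12.5, 15.6 and 14 CPM against 22.2, 26.2 and 21.4 CPM, a difference of -0.74 ± 0.23 that was -0.70 within the control label and -0.68 within the Myc label. The growth arrest gene Gadd45g stood at 113, 79.8 and 91.5 CPM against 133, 158 and 125 CPM, a difference of -0.56 ± 0.16 that was -0.57 within each label. Gadd45g differed in the uncontracted legs by -0.09 ± 0.20.

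Fast fibre contractile genes were lower without overlap in 8 of 18 cases (44.4%) and higher in 1 (5.56%), against 4.76% and 6.31% of all genes, with a median of -0.19. Their summed level was 174266 to 188650 CPM in the high class and 207468 to 211490 CPM in the low class. The uncontracted legs had 4 lower (22.2%, against 4.33% of all genes) and 0 higher without overlap, with a median of -0.18. Pvalb, the calcium buffer of fast fibres, stood at 14731, 16938 and 17061 CPM in the high class and at 22932, 20741 and 19849 CPM in the low class, a difference of -0.40 ± 0.11. Tpm1, the thin filament tropomyosin, stood at 17385, 19221 and 15444 CPM against 23048, 22145 and 20509 CPM, a difference of -0.36 ± 0.11, and differed by -0.34 ± 0.10 in the uncontracted legs without overlap. The 1 higher gene was Myh1, the IIX myosin heavy chain, at 351, 298 and 272 CPM against 187, 251 and 250.3 CPM, a difference of 0.41 ± 0.14.

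Glycolysis and glycogen genes were lower without overlap in 7 of 28 cases (25%) and higher in 0, against 4.76% and 6.31% of all genes, with a median of -0.15, and the uncontracted median was -0.09. Eno3, the muscle enolase, stood at 2278, 2583 and 2738 CPM in the high class and at 2861, 3069.6 and 3011 CPM in the low class, a difference of -0.25 ± 0.11. Of 75 nuclear genes of oxidative phosphorylation, 13 (17.3%) were higher and 0 lower without overlap, against 6.31% and 4.76% of all genes. Their median was 0.07, and 0.004 without contracted Myc 1. In the uncontracted legs 23 (30.7%, against 7.79% of all genes) were higher and 0 lower, with a median of 0.14. Ndufb10, a subunit of complex I, stood at 274, 251 and 264 CPM against 193, 203 and 246 CPM, a difference of 0.29 ± 0.13. These transcripts make up much of each library, so in relative units a lower fibre share and a higher share of other genes are not independent measures.

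No member of the MAX network list (13 measured), which holds dimer partners, antagonists and regulators of Myc, was separate in either direction. Of all genes 6.31% were higher and 4.76% lower without overlap, and 13 genes are few for such shares. The median of the list was -0.06. Of 32 proteasome genes 1 (3.12%) was higher and 1 lower without overlap, against 6.31% and 4.76% of all genes, with a median of -0.01. Of 38 heat shock and chaperone genes 6 (15.8%) were higher and 1 (2.63%) lower without overlap, against 6.31% and 4.76% of all genes. Their median was 0.03, and it was -0.008 without contracted control 1 and 0.17 without contracted Myc 2. Of 9 measured mitochondrially encoded genes 2 (22.2%) were higher and 0 lower without overlap, against 6.31% and 4.76% of all genes. Their median was 0.09, and 0.02 without contracted Myc 3. Among the chaperones Cct8, of the cytosolic chaperonin that folds actin and tubulin, stood at 135, 153 and 133 CPM against 98.9, 108 and 114 CPM, and differed by 0.38 ± 0.13 in the split and 0.36 ± 0.13 in the uncontracted legs.

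Finally, the difference between the 2 comparisons was itself tested in all 12 libraries, as the split in the contracted legs minus the labelled difference in the uncontracted legs. No gene passed (0 of 6675, 0%), and the smallest adjusted p was 0.9997 by edgeR's quasi-likelihood test. An unadjusted p under 0.05 was reached by 209 genes (3.13%). For Rpl36a this difference of differences was -0.01 ± 0.17 and for Npm1 0.26 ± 0.26. For Timm10 it was -0.50 ± 0.25 and for Nme1 -0.64 ± 0.25, both short of the threshold. These 2 genes were named because they passed in the uncontracted legs, a choice that favours larger differences there. No conclusion is drawn from the sign. A difference that misses the threshold does not show that the 2 pairs of groups acted alike.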

How the data were processed

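Whole-read counts per gene were deposited by the authors in 1 table for 12 QuantSeq 3' mRNA libraries. The submitters' processing notes name FastQC 0.11.5, STAR 2.5.2a, SAMtools, HTSeq 0.6.0 and mm10; the annotation and strand setting are not given in the sources used here. Totals ran from 1371732 to 1643216 reads, so 1 read was 0.609 to 0.729 CPM.

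The members and the gene lists were chosen with earlier results of these data known, and many genes named in the text after their values were seen. The classes came from Myc reads (10 or more, 2 or fewer), a measured outcome, so the split is given as a description. The table held 47643 gene IDs, 47224 with a symbol. Genes passing filterByExpr (minimum count 10, 12 libraries, 4 labelled groups) numbered 6676. Each comparison was fitted on its own 6 libraries with edgeR 4.0.16 (TMM scaling, quasi-likelihood test, Benjamini-Hochberg adjustment) in R 4.3.3; the difference of differences used all 12. SE is the absolute log2 difference over the square root of F. Groups did not overlap where every CPM of 1 lay above every CPM of the other. Library scores are mean log2 CPM with a prior count of 2.

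The named-gene rule took the 5 highest and lowest differences among separate groups of at least 5 CPM where under 5 genes passed, genes passing the test, and up to 4 members per list with the smallest p. Alternatives were DESeq2 1.42.0, other scalings, filters and dispersions, all libraries together, leaving out each library, a label covariate, and blocks (limma 3.58.1). The test was tried on simulated data. No 2 columns were identical (Pearson's r of log2 CPM between libraries 0.908 to 0.968).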

Additional observations from a re-analysis of the deposited data

How the results depend on the processing

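Among the genes named in the text, 5 changed sign when single libraries were left out, none of which had passed in that comparison: Pstk in the split (-0.24 to 0.32) and, in the uncontracted legs, Gars (-0.20 to 0.067), Oat (-0.030 to 0.098), Serpina3c (-0.078 to 0.91) and Gadd45g (-0.29 to 0.18). The split gave 0 passing genes except for 13 with no low-count filter, 17 with the replicate block and 0 to 1 when single libraries were left out (1 without contracted control 3). The uncontracted comparison gave 2, but 18 with DESeq2, 21 with robust dispersions, 40 with no low-count filter, 4 with all 12 libraries, 0 with the replicate block, and 0 to 3 when single libraries were left out. The contracted legs as labelled gave 0, but 4 with no low-count filter and 0 to 1 when single libraries were left out. The test of the difference gave 0 throughout. The cause of these changes was not tested.

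Correlations of same-numbered libraries, as deviations from their group means, were 0.03 to 0.26 in the split and -0.14 to 0.05 in the uncontracted legs. Whether the replicate number marks a pairing or a batch was not tested. With the animal as a random block, legs of one animal had a consensus correlation of 0.004.

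The ribosomal protein median ranged from 0.26 to 0.38 in the split and from 0.34 to 0.43 in the uncontracted legs when single libraries were left out, and the nucleolar median from 0.22 to 0.34 and from 0.26 to 0.31. Other split medians moved more, from 0.073 to 0.24 for the mitochondrial ribosome and import, 0.061 to 0.18 for nucleotide synthesis, 0.004 to 0.11 for oxidative phosphorylation, -0.40 to -0.11 for immediate early genes, -0.32 to -0.10 for mechanical stress and -0.32 to -0.07 for the integrated stress response. With the genotype label as a covariate, an alternative chosen after seeing the data, the ribosomal protein and nucleolar split medians were 0.35 and 0.26. Other scalings moved the median of all genes by under 0.1. At 1 read per 0.609 to 0.729 CPM, genes of a few CPM rest on a few reads.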

Other observations

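Genes with large labelled differences in the uncontracted legs did not all separate the contracted classes. Pstk, a kinase of selenocysteine synthesis, differed by 1.38 ± 0.32 in the uncontracted legs and by 0.05 ± 0.34 in the split. Cish, a cytokine-induced inhibitor of STAT5 signalling, stood at 2.54, 1.32 and 2.92 CPM under the uncontracted Myc label and at 9.78, 7.41 and 7.16 CPM under the control label, a difference of -1.85 ± 0.48, beside -0.31 ± 0.35 in the split. Cdkn1c, a cyclin-dependent kinase inhibitor, differed by -1.73 ± 0.35 (adjusted p = 0.0615, edgeR) and by -0.47 ± 0.33. Daam1, a formin, differed by -1.31 ± 0.42 and by -0.15 ± 0.26. Sh3bp1, by contrast, differed by 1.63 ± 0.45 and by 1.29 ± 0.37, without overlap in either. The difference between the comparisons passed for none of these genes by edgeR's quasi-likelihood test.

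2 genes of antigen presentation were lower in their means in both comparisons and were chosen after their values were seen. Cd74, the invariant chain of class II molecules, stood at 48.1, 49.4 and 51 CPM in the high class and at 61.9, 62.7 and 104 CPM in the low class, a difference of -0.63 ± 0.19, and differed by -0.70 ± 0.21 in the uncontracted legs. H2-Ab1, a class II chain, differed by -0.65 ± 0.22 and by -0.88 ± 0.25, and its contracted classes overlapped.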
